A study of Mus musculus with 10 samples.

Results

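Transcripts of Pcsk5, Furin and Bdnf were followed in the kidneys of 10 littermate mice. Those with an FGF23 transgene were TG 614, 619, 652, 657 and 661, and those without it were WT 612, 618, 650, 658 and 663. The members are every probe set that names 1 of these genes and no other in the platform annotation, which gave 5 probe sets for 3 of the 8251 genes named alone by a probe set. Bdnf and Furin had 1 probe set each and Pcsk5 had 3. The genes were selected on the TG against WT values of these same arrays and on their biochemical tie to FGF23. Their TG against WT differences are therefore given as a description, with no test.

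All 10 mice were on a C57Bl background and their kidneys were taken at 8 weeks of age, with 1 Affymetrix MG_U74Av2 array run per animal. The TG mice carried human wild-type FGF23 driven by a collagen type I alpha 1 promoter, introduced by microinjection. That promoter is active mainly in bone-forming cells, so the kidney is a tissue on which the hormone acts rather than the intended site of its synthesis. Groups come from the sample titles, since the genotype label reads TG for all 10 animals, and the number of founder lines was not given in the sources used here.

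FGF23 is a bone-derived hormone that lowers renal phosphate reabsorption and active vitamin D. It is inactivated by cleavage between its receptor-binding and Klotho-binding portions, at a site of the kind cut by furin and related proprotein convertases. These convertases are serine proteases of the secretory pathway that cut precursors after basic residues. BDNF, a neurotrophin that signals through TrkB, is made as such a precursor and can be matured by furin, by PC5/6 (the product of Pcsk5) and, outside the cell, by plasmin and metalloproteases. The arrays measured messenger RNA in whole kidney, so neither protein, nor protease activity, nor cleavage was measured.

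The start-site sequences of the 3 genes are shown to place the 3 genes, with 1 window for each. A short motif is present in 1 of the 7 Bdnf windows and 1 of the 2 Furin windows, and not in the only Pcsk5 window. Its relation to the differences between TG and WT was not tested. Windows run from 250 bases before to 50 bases after a transcription start in RefSeq, build GRCm38.p6, with capitals marking the motif TCACGTCA, or TGACGTGA when read on the other strand. This is a 1-base variant of the cyclic AMP response element, TGACGTCA, a site bound by CREB. The variant was chosen after the sequences had been seen.
Bdnf window 3 of 7, chr2:109692186-109692485, plus strand: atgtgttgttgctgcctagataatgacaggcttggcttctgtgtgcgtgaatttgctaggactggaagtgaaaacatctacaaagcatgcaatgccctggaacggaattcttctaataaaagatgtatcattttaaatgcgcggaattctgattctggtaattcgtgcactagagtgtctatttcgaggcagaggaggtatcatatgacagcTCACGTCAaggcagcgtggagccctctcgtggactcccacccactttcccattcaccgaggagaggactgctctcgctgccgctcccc
Furin window 1 of 2, chr7:80405387-80405686, minus strand: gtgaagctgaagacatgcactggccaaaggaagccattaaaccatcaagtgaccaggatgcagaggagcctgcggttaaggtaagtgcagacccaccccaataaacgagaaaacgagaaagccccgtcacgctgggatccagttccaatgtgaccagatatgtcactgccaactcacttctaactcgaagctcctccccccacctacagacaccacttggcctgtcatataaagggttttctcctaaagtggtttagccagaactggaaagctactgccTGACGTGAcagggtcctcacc
Pcsk5 only window, chr19:17837583-17837882, minus strand: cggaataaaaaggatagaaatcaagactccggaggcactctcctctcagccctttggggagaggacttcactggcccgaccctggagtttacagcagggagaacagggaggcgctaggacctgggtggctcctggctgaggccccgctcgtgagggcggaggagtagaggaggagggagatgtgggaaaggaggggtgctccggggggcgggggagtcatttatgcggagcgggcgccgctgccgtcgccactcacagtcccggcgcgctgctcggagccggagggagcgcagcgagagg
In the Bdnf window the match begins at position -38, counted from the start site as 0, and in the Furin window it begins at position 29. The variant occurs in 145 of 32851 mouse windows (0.441%) and the full element in 588 (1.79%), on either strand. No window of the 3 genes holds the full element. A match of letters is a description and shows neither binding nor regulation, and the arrays do not tell which start site was in use. GC content was 65.7% in the Pcsk5 window, 38.7% to 58.0% in the 7 Bdnf windows, and 51.3% and 82.3% in the 2 Furin windows. Within the same assembly, Bdnf spans chr2:109674700-109727043, Furin chr7:80389194-80405441 and Pcsk5 chr19:17432314-17837712.

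Expression is given as the deposited log2 value of each probe set, where 1 unit is a doubling of the signal. A log2 value of 4 was used as the floor, and a probe set was tested when it exceeded the floor on at least 5 of the 10 arrays. That was met by 6814 probe sets, among them 3 of the 5 probe sets described here. The level of 1 probe set is not compared with that of another, because probes differ in affinity. On each array 53.0% to 57.0% of all probe sets exceeded the floor. The loop of Henle markers Umod (11.90 to 13.44) and Slc12a1 (10.76 to 12.71) and the proximal tubule receptor Lrp2 (12.10 to 13.01) were far above it in all 10 kidneys, with WT 618 lowest for Umod and Slc12a1. Both groups held 2 females and 3 males, as read from Xist because the labels do not give sex.

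The precursor substrate, Bdnf, was lower in every transgenic kidney than in any wild-type kidney. The Bdnf probe set, 102727_at, measured 7.14 in TG 614, 7.44 in TG 619, 7.00 in TG 652, 7.25 in TG 657 and 7.55 in TG 661. It measured 7.96 in WT 612, 8.83 in WT 618, 8.31 in WT 650, 8.24 in WT 658 and 8.44 in WT 663. The highest TG value lay 0.41 below the lowest WT value, and all 10 values were well above the floor. Group means were 7.28 ± 0.22 in TG and 8.36 ± 0.32 in WT (SD, n = 5 each), a difference of -1.08 ± 0.16 (SE) and a 2.11-fold lower signal. As background, 1.91% of the probe sets tested had every TG value below every WT value, 0.426% were lower in TG at an adjusted p under 0.05, and 1.22% passed that threshold in either direction (limma, Benjamini-Hochberg). Since the same contrast chose the gene, nothing is read from these shares for Bdnf.

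**Figure D1:**
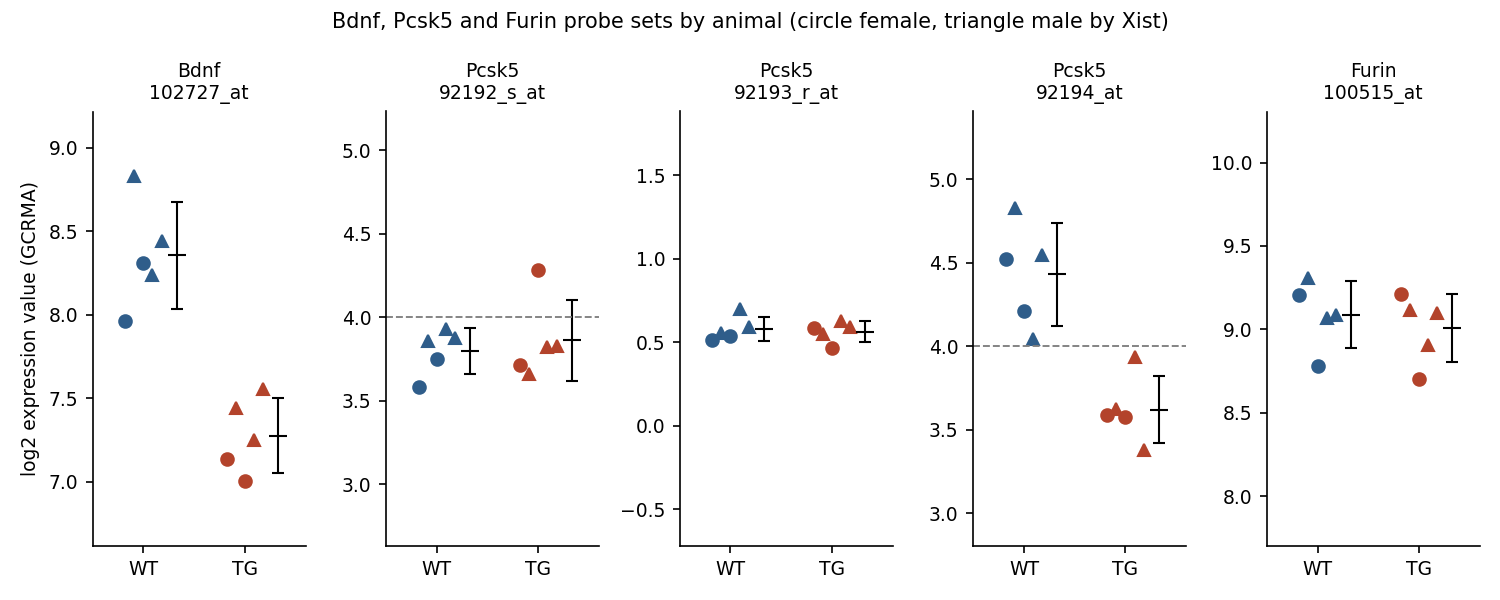
Log2 value of each of the 5 probe sets in each animal (vertical axis), with WT left and TG right, circles for females, triangles for males, bars for group means with SD (n = 5), and a dashed line at the floor of 4. Bdnf and Pcsk5 92194_at do not overlap between groups, Furin does, and the remaining Pcsk5 probe sets lie at or under the floor on nearly all arrays.

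Pcsk5 encodes PC5/6, a furin-type convertase with a secreted and a membrane-bound form, and its signal was close to the lower limit of measurement. The probe set 92194_at measured 3.59 in TG 614, 3.62 in TG 619, 3.58 in TG 652, 3.93 in TG 657 and 3.38 in TG 661. It measured 4.52 in WT 612, 4.83 in WT 618, 4.21 in WT 650, 4.04 in WT 658 and 4.55 in WT 663. All 5 WT values were over the floor and all 5 TG values under it, with only 0.10 between the highest TG animal, 657, and the lowest WT animal, 658. Means were 3.62 ± 0.20 in TG and 4.43 ± 0.31 in WT (SD, n = 5 each), a difference of -0.81 ± 0.16 (SE), or 1.75-fold lower. Raising sub-floor values to the floor left a difference of -0.43, or 1.35-fold, which is the part of the difference that lies above the floor. Because the probe set entered the tested set only through its WT values, a lower TG value was built into its passing.

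The other probe sets for Pcsk5 did not show that difference. In TG, 92192_s_at measured 3.72 in TG 614, 3.66 in TG 619, 4.28 in TG 652, 3.82 in TG 657 and 3.83 in TG 661. In WT it measured 3.59 in WT 612, 3.86 in WT 618, 3.75 in WT 650, 3.93 in WT 658 and 3.88 in WT 663. The groups overlapped and TG 652 was the single animal over the floor, with means of 3.86 ± 0.24 and 3.80 ± 0.14 (SD, n = 5 each) and a difference of 0.061 ± 0.12 (SE). The third probe set, 92193_r_at, ran from 0.46 to 0.70 on all 10 arrays, with means of 0.56 ± 0.06 in TG and 0.58 ± 0.07 in WT, and never reached the floor. Neither was tested. In the annotation 92192_s_at and 92193_r_at share 1 sequence record and 92194_at has another. Which transcript forms each detects was not given in the sources used here.

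**Figure D2:**
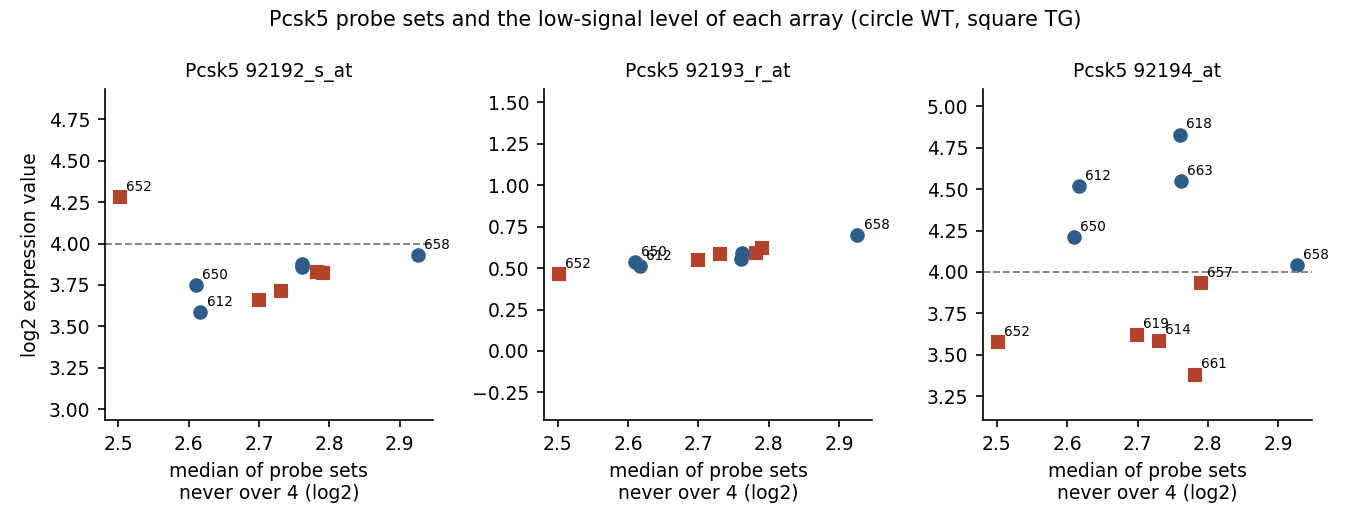
Log2 value of each Pcsk5 probe set (vertical axis) against the median log2 value, per array, of the 5035 probe sets that never exceeded the floor (horizontal axis); circles are WT, squares TG, labels are animal numbers and the dashed line is the floor. That median was lowest in TG 652 (2.50) and highest in WT 658 (2.93), and WT 658 had the lowest WT value of 92194_at. In contrast, 92193_r_at was lowest in TG 652 and highest in WT 658.

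Low signals such as these can move with the low end of an array. The median of the 5035 probe sets that never exceeded the floor ran from 2.50 in TG 652 to 2.93 in WT 658. WT 658, with the highest such median, had the lowest WT value of 92194_at, and TG 652, with the lowest, had the highest value of 92192_s_at. Other values went with the median. The probe set 92193_r_at was lowest in TG 652 (0.46) and highest in WT 658 (0.70). Within WT, 92192_s_at was also highest in WT 658 (3.93). With that median as a covariate the difference of 92194_at was -0.82, and the Bdnf difference was -1.05. The gap between the 3' and 5' actin control probe sets, a sign of RNA integrity, spanned 1.82 to 2.58 in TG mice and 1.95 to 3.35 in WT mice. With this gap as a covariate the difference was -0.71 for 92194_at and -1.08 for Bdnf. Both covariates were chosen after the values had been seen.

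Furin, the ubiquitous convertase of the trans-Golgi network, had overlapping values in the groups. Its probe set, 100515_at, measured 9.21 in TG 614, 9.12 in TG 619, 8.70 in TG 652, 8.91 in TG 657 and 9.10 in TG 661. It measured 9.20 in WT 612, 9.31 in WT 618, 8.78 in WT 650, 9.07 in WT 658 and 9.09 in WT 663. The groups overlapped, and the lowest animal of each group, TG 652 and WT 650, was a female of the later number range. Means were 9.01 ± 0.20 in TG and 9.09 ± 0.20 in WT (SD, n = 5 each), a difference of -0.081 ± 0.13 (SE).

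The same animal, WT 618, had the highest value of Bdnf, of Pcsk5 92194_at and of Furin among all 10. Without it the TG minus WT differences were -0.96 for Bdnf, -0.71 for Pcsk5 92194_at and -0.027 for Furin. WT 618 also had the lowest Umod and Slc12a1 values, 11.90 and 10.76. Whether that bears on the 3 genes was not tested.

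The differences were next taken within animals that shared a sex, an animal number range or an array run. For Bdnf the TG minus WT difference was -1.07 in females and -1.09 in males, and -1.11 in the earlier number range (612 to 619) and -1.06 in the later (650 to 663). It was -1.13 within the 8 arrays of the first run day, and -1.08 and -1.21 within the 2 chip lots that held both groups. The lots differed in make-up. The first held TG 614, TG 619, WT 612 and WT 618 of the earlier range with WT 650 of the later. The second held TG 652 (female) and TG 657 (male) against WT 658 and WT 663, both male. Differences within a lot thus mix genotype with range or sex. These subsets share the same 10 arrays and are no separate evidence.

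Pcsk5 92194_at varied more, with -0.78 in females, -0.83 in males, -1.07 in the earlier range and -0.64 in the later range. It was -0.72 on the first run day, and -0.92 and -0.54 in the 2 lots. On the fluidics station that ran TG 652, TG 657, WT 650 and WT 658 it was -0.37, against -1.10 on the station of the other 6 arrays. The Furin difference was negative in all of these subsets except the first lot, where it was 0.068. It was -0.27 in the second lot, where only the TG pair included a female, -0.034 in females and -0.11 in males.

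**Figure D3:**
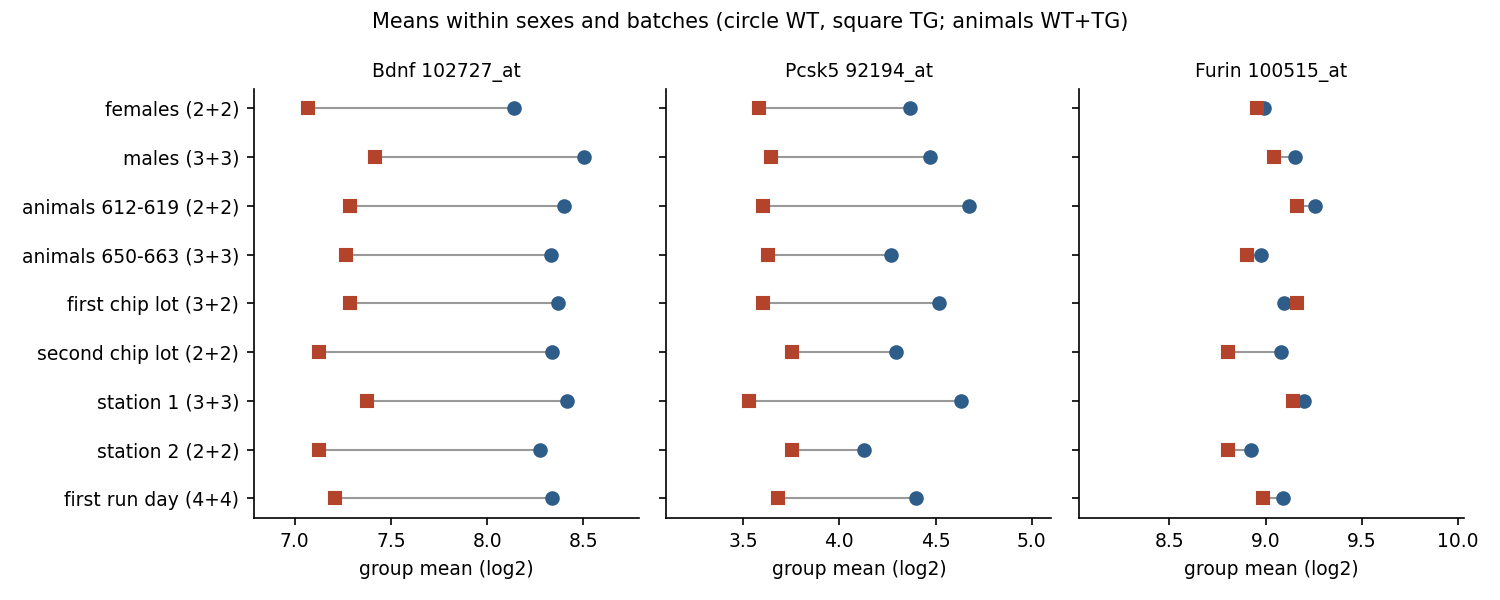
Group means in log2 value (horizontal axis; circle WT, square TG, joined by a line) of Bdnf, Pcsk5 92194_at and Furin within each subset of animals (vertical axis: sex, animal number range, chip lot, fluidics station and first run day, with the numbers of WT and TG animals); subsets share animals with each other and carry no error bars. The TG minus WT difference of Bdnf ranges from -1.21 to -1.03, Pcsk5 from -1.10 to -0.37 and Furin from -0.27 to 0.068.

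Sex and number range were not used to choose the genes, so these terms could be tested for Bdnf and Furin. Bdnf was 7.60 ± 0.63 in the 4 females and 7.96 ± 0.63 in the 6 males (SD across both genotypes). With genotype in the model, the female minus male difference was -0.36 ± 0.13 (SE), with a 95% interval from -0.64 to -0.070 and an adjusted p of 0.101 (limma, Benjamini-Hochberg). The 2 TG females had the lowest Bdnf values of all 10 mice, and WT 612, a female, the lowest of the WT mice. The remaining female, WT 650 (8.31), lay above the male WT 658 (8.24). For Furin the sex difference was -0.12 ± 0.13 with an adjusted p of 0.539. Neither Bdnf nor Furin passed, where 8.53% of all probe sets tested did. For Pcsk5 92194_at the sex difference was -0.085 ± 0.16 (SE). It is given without a test, because all of its TG values lay under the floor.

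Furin was 9.21 ± 0.08 in the 4 mice of the earlier range and 8.94 ± 0.17 in the 6 of the later range (SD). The later minus earlier difference was -0.27 ± 0.10 (SE), with a 95% interval from -0.49 to -0.044 and an adjusted p of 0.144 (limma). Every earlier mouse lay above every later mouse, by the margin between TG 619 at 9.12 and TG 661 at 9.10, as was so for 2.7% of the probe sets tested. For Bdnf the range difference was -0.044 ± 0.17 (adjusted p 0.924). Again neither Bdnf nor Furin passed, against a background of 3.6% of the probe sets tested. For Pcsk5 92194_at the range difference was -0.19 ± 0.15 (SE), likewise given without a test. What the number ranges stand for was not given in the sources used here.

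Whether the genotype difference of Bdnf and Furin depended on sex or range was tested as an interaction. For sex the interaction was 0.022 for Bdnf (adjusted p 0.997) and 0.078 for Furin (adjusted p 0.996, limma). For number range it was 0.048 for Bdnf and 0.014 for Furin, with an adjusted p of 1 each. With 2 females a group the 95% interval for Bdnf by sex was wide, from -0.59 to 0.63. The interaction of Pcsk5 92194_at is not given, because all of its TG values lay under the floor.

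The rest of the convertase family gives the setting for Pcsk5 and Furin. Of 7 other proprotein convertases, 5 were on the array and 2 had enough signal to test, and neither passed the threshold, also before adjustment. Mbtps1, the site-1 protease that activates SREBP transcription factors, ran from 7.84 to 8.36, with a difference of 0.18 ± 0.095 (SE; adjusted p 0.469, limma). Pcsk1, a convertase of neuroendocrine granules, lay just over the floor, between 4.03 and 4.65, with a difference of -0.068 ± 0.12 (adjusted p 0.853). An exact permutation test, two-sided over 252 assignments with 0.00794 as its smallest possible p, gave 0.0714 for Mbtps1 and 0.571 for Pcsk1. Pcsk6, encoding the convertase PACE4, exceeded the floor only in TG 652 (4.16) and TG 661 (4.17). Pcsk4, a germ-cell convertase, exceeded it only in WT 612 (4.13), and Pcsk7 did so in no animal. The median difference of the 2 tested genes was 0.056, against -0.014 over all genes tested.

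**Figure D4:**
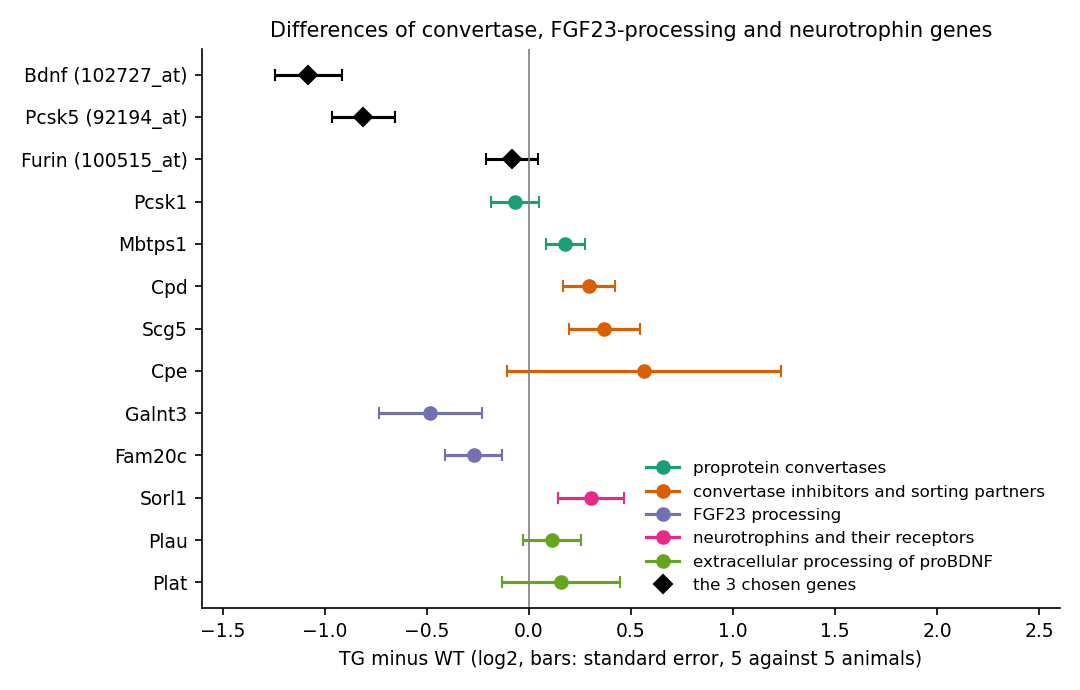
TG minus WT difference in log2 value (horizontal axis) with standard error for each tested gene of the convertase, inhibitor and sorting, FGF23-processing, neurotrophin and proBDNF lists, beside the 3 genes described here. Bdnf (-1.08) and Pcsk5 (-0.81) are the most negative values drawn, both from genes selected on this contrast, which was not tested for them; none of the list genes drawn passed the adjusted threshold.

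Partners that hold back, sort or follow the convertases were measured in the same kidneys. Of 8 such genes 6 were on the array and 3 were tested, with 0 past the threshold and a median of 0.37. At an unadjusted p under 0.05 (limma) there was 1, against 868 of all 6814 probe sets tested. Cpd, the trans-Golgi carboxypeptidase that trims basic residues left by furin, differed by 0.29 ± 0.13 (SE; adjusted p 0.376, limma), while its other probe set differed by -0.097. Scg5, the 7B2 chaperone of the PC2 convertase, differed by 0.37 ± 0.18 (adjusted p 0.414). Cpe, the matching carboxypeptidase of secretory granules, differed by 0.56 ± 0.67 (adjusted p 0.773) and by 0.29 in its other probe set. Cpe also differed by sex and lay between 8.90 and 9.21 in females and between 10.38 and 11.78 in males, a difference of -2.17 ± 0.18 (adjusted p 0.000106, limma). The convertase inhibitor Pcsk1n, the amidating enzyme Pam and the furin-sorting adaptor Pacs1 never exceeded the floor.

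Other genes tied to FGF23 cleavage or to its level in bone were also examined in kidney. Besides Furin and Pcsk5, 4 of 6 were on the array, 2 were tested and 0 passed, with a median of -0.38. Galnt3, whose O-glycosylation shields FGF23 from convertase cleavage, differed by -0.48 ± 0.25 (SE; adjusted p 0.466, limma). It was lower in females, by -0.64 ± 0.17 relative to males (adjusted p 0.0494). Fam20c, the kinase that favours cleavage by opposing that glycosylation, differed by -0.27 ± 0.14 (adjusted p 0.459). Phex and Dmp1, whose loss raises FGF23 in bone, never exceeded the floor.

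The Bdnf side of the pathway was thinly covered. Of 12 other neurotrophins and receptors 3 were on the array, and Sorl1, a sorting receptor that traffics TrkB, was the 1 tested, at 0.30 ± 0.16 (SE; adjusted p 0.468, limma). Ntrk2, encoding TrkB itself, exceeded the floor only in WT 658 (4.25), and Ntrk3, the receptor for neurotrophin-3, in no animal. Of 9 proteases and cofactors that can process proBDNF outside the cell 8 were on the array and 2 were tested, with 0 past the threshold. The plasminogen activators Plat and Plau differed by 0.16 (adjusted p 0.862) and 0.11 (adjusted p 0.786).

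Of 43 known precursors cut by furin-type convertases, 37 were on the array, 11 never exceeded the floor and 23 were tested. None passed the threshold, 2 had an unadjusted p under 0.05, 11 were higher in TG, and the median difference was -0.0098. Over all 6814 probe sets tested, 868 had an unadjusted p under 0.05 (limma). The smallest p values belonged to Mmp14, a membrane metalloprotease (0.38 ± 0.15, adjusted p 0.338), Atp6ap2, the prorenin receptor (0.40 ± 0.16, adjusted p 0.358), and Tgfb1 (0.52 ± 0.26, adjusted p 0.447; SE, limma). In Tgfb1 the values of 6.78 in TG 614 and 6.71 in TG 619 stood above the other 8 animals, which ran from 5.30 to 5.68.

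Bdnf and Pcsk5 can come from cell types other than tubule cells, so markers of those cells are set beside their values. In whole kidney, fewer cells of a type and less RNA per cell cannot be told apart. Of 8 endothelial markers 7 were tested and 0 passed, with a median of -0.035 and summed levels between 10.65 and 11.18 for TG and between 10.69 and 11.54 for WT. Of 5 smooth muscle markers 3 were tested and 0 passed, with a median of -0.063. The macrophage and leukocyte markers had summed levels between 8.73 and 9.50 for TG and between 8.70 and 8.76 for WT, with 3 tested, a median of 0.37 and 0 passed. The macrophage receptor Csf1r was 8.20 to 9.02 in TG mice and 8.04 to 8.17 in WT mice. Its other tested probe set, 161832_r_at, overlapped between the groups, with a difference of -0.081. Nerve and adrenal markers were near the floor or under it, as 5 of the 6 on the array in each list never exceeded it, with nerve summed levels between 5.50 and 5.83 for TG and between 5.59 and 5.96 for WT. The fibroblast markers had a median of 0.50, all 6 with a higher mean in TG and 0 past the threshold. Their summed levels were between 10.78 and 11.99 for TG and between 10.52 and 11.56 for WT. The rise was not uniform. Col1a1 was 8.76 in TG 614 and 9.55 in TG 619, but 7.14 to 7.56 in the other TG mice, against a WT mean of 7.64. Dcn differed by 0.11, and the other tested Col1a2 probe set by -0.13. Adipose markers were near the floor except Adipoq, at 8.17 in WT 650 and 3.07 to 4.91 in the other 9 mice. Without WT 650 the difference was -1.09 for Bdnf and -0.86 for Pcsk5 92194_at.

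Among nephron markers the medians were -0.40 for the proximal tubule, 0.56 for the thick ascending limb, -0.58 for the distal convoluted tubule, -0.14 for the collecting duct and 0.07 for podocytes, and -0.20 for the 1 platelet marker tested. None of these lists had a gene past the threshold without sex in the model. With sex in the model, chosen after the values had been seen, 5 passed. In that model 285 of all 6814 probe sets tested passed. The phosphate transporter Slc34a1 (-0.40, adjusted p 0.0258), the organic anion transporter Slc22a6 (-0.83, adjusted p 0.0352) and the water channel Aqp4 (-1.18, adjusted p 0.022) were lower in TG. The potassium channel Kcnj1 (0.78, adjusted p 0.0119) and the thiazide-sensitive cotransporter Slc12a3 (0.92, adjusted p 0.00328, limma) were higher. Their lists did not move as a whole. In the list of Slc12a3, Pvalb (-0.91) and Calb1 (-0.58) were lower in TG. In that of Aqp4, Hsd11b2 was higher (0.47) and Aqp2 lower (-0.14). In that of Slc34a1 and Slc22a6, Lrp2 differed by 0.011. The part of tissue make-up in the Bdnf and Pcsk5 values was not tested.

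Genes with profiles most like those of Bdnf and Pcsk5 were found by the root mean square difference between profiles over the 10 arrays, each centred on its own mean. For Bdnf, whose own profile had an SD of 0.59, the nearest was Gpd1, the cytosolic enzyme of the glycerol phosphate shuttle (0.21). In order of distance it was followed by Car14, a membrane carbonic anhydrase (0.27), Tcea3, an elongation factor (0.27), Gpd2, the mitochondrial enzyme of that shuttle (0.27), and Acad9, an acyl-CoA dehydrogenase needed for complex I assembly (0.29). Gpd1 measured 8.36, 8.81, 8.32, 8.66 and 8.82 in TG 614, 619, 652, 657 and 661, and 9.10, 9.55, 9.27, 9.18 and 9.68 in WT 612, 618, 650, 658 and 663. Within TG the females, TG 614 and TG 652, were lowest for Gpd1 as for Bdnf. The choice of Gpd1 by its distance over all 10 arrays favours such a likeness.

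For Pcsk5 92194_at, with an SD of 0.47, the nearest were Acsf3, an acyl-CoA synthetase of mitochondria (0.19), Car14 (0.20), the microtubule protein gene Mapt (0.20), the potassium-chloride cotransporter Slc12a7 (0.20) and the tyrosine kinase gene Ptk2b (0.21). Car14 was the gene named for both, between 8.65 and 8.79 for TG and between 9.55 and 10.03 for WT. All 9 genes had every TG value below every WT value. Likeness to a profile chosen for its TG against WT split carries that split over, so this is a description of the arrays and no independent support.

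**Figure D5:**
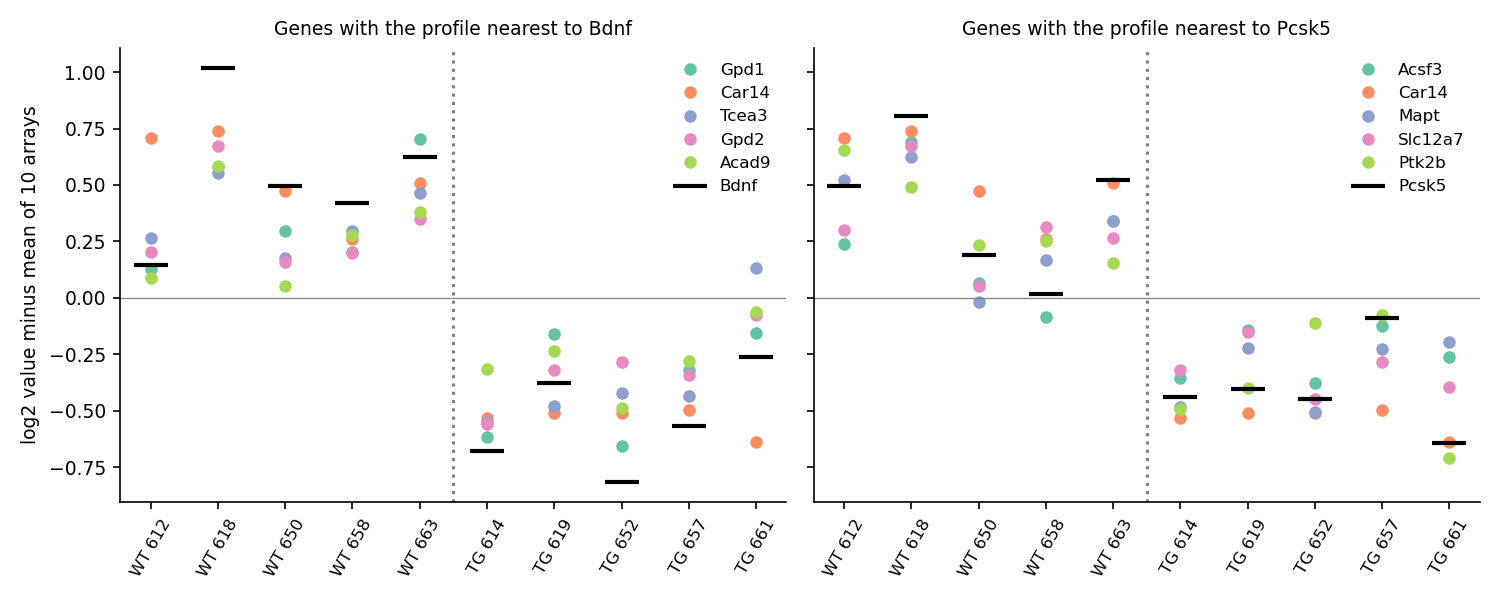
Centred log2 values (vertical axis) over the 10 arrays (horizontal axis, WT and TG animals) of Bdnf and of Pcsk5 92194_at with the 5 genes whose profiles have the smallest root mean square difference from each. Black bars are Bdnf or Pcsk5 and coloured points the like genes; each gene lies higher in every WT animal than in any TG animal.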

How the data were processed

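Total kidney RNA, 6 ug per animal, was hybridised to 1 array for each of 10 animals. The authors deposited log2 values per probe set, which come from GCRMA, version not given, according to the submitters' processing notes. The log2 scale was read from the range of the values, which were used as deposited. Lot, station and order of run days came from deposited array run records, per the file headers. The number of arrays limits the precision, and each array is a separate animal.

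Of 12488 probe sets 66 were controls, 10833 named 1 gene, 396 several and 1193 none. All probe sets tested were fitted together in limma 3.58.1 under R 4.3.3 (lmFit, eBayes, two-sided, Benjamini-Hochberg, threshold 0.05), after a check on simulated data. Sex was female where Xist exceeded 6. Summed levels are log2 of summed linear values. The text names the 3 genes, all measured genes of the convertase, partner, FGF23-processing and neurotrophin lists, for the lists of proBDNF processing and substrates those past the threshold or otherwise up to 3 with the smallest p, and the 5 likest genes. Each list gene is its brightest probe set. Members and lists were chosen with earlier results of these data known. Figures used Python 3.11.15 and matplotlib 3.10.9.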

Additional observations from a re-analysis of the deposited data

Results flagged for a closer look

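In groups of 5 animals, 26 groups were checked for an animal far from the rest, by the gap to its nearest neighbour over the range of the group against a critical value of 0.71, which chance passes in about 1 in 20 groups. For Pcsk5 probe set 92192_s_at, TG 652 stood apart in the TG group at 4.28, with the next animal at 3.83 and a ratio of 0.728. For Scg5 probe set 100131_at, TG 652 also stood apart at 6.88, with the next animal at 6.36 and a ratio of 0.734.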

How the results depend on the processing

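The Bdnf difference ran from -1.14 to -1.01 over 11 alternatives and from -1.18 to -0.96 when each animal was left out in turn. Furin ran from -0.10 to -0.0040 and from -0.16 to -0.0053. Some alternatives could not change the Bdnf or Furin difference. These were sex or number range in the model, values under 4 set to 4, and the mean of probe sets. Both groups had the same make-up by sex and by range. No value of either gene was under 4, and each gene had 1 probe set. Pcsk5 92194_at, -0.81 as deposited, became -0.41 on log2 of the linear value plus 16, -0.43 with values under 4 set to 4, and -0.25 as the mean of its probe sets, and ran from -0.91 to -0.71 with 1 animal left out. The number of probe sets past the threshold for TG minus WT, 83, was 48 with no filter, 36 with median centring, 285 with sex in the model, 32 with run day as a block, and 27 to 83 with 1 animal left out. Those lower in TG, 29, ran from 9 to 114 over the alternatives. Other convertases past the threshold numbered 0 in 13 alternatives and 10 fits with 1 animal left out. Neither Bdnf nor Furin passed for sex or number range in any fit run. The adjusted p ran from 0.074 to 0.248 for Bdnf by sex and from 0.0548 to 0.261 for Furin by range (limma). Pcsk5 92194_at missed the filter when any 1 WT animal was left out. The mice were littermates, but the sample labels give no litter, so TG and WT animals could not be paired by litter. Signal near the floor limits what can be said of Pcsk5, and 2 females a group limits the comparisons by sex.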

Other observations

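With sex in the model, 0 genes of the convertase, partner, FGF23-processing, neurotrophin, proBDNF-processing and substrate lists passed the TG minus WT threshold, members aside, while 5 nephron markers did, as given above. Among the substrates, Cubn, the endocytic receptor cubilin of the proximal tubule, was higher in females by 0.60 (adjusted p 0.0107, limma). Bmp2 was lower in females at -0.42 (adjusted p 0.0288, limma), but this probe set, 161118_r_at, lay near the floor. It ran from 3.91 in TG 652 to 4.76 in WT 658, the arrays with the lowest and highest low-signal medians. The remaining Bmp2 probe sets never exceeded the floor. Adam9, a metalloprotease, and Atp6ap2 were higher in the later number range, by 0.36 (adjusted p 0.0474) and 0.44 (adjusted p 0.0481).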
